A study of Mus musculus with 10 samples.

Results

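The Dlx family of homeobox transcription factors was examined in mouse secondary palate at E14.5, while the palatal shelves fuse. Its members were taken as every probe set whose annotation gives exactly 1 symbol among Dlx1, Dlx2, Dlx3, Dlx4, Dlx5, Dlx6 and Dlx1as, the antisense transcript of Dlx1. This gave 9 of the 45101 probe sets on the array, for 7 of 18194 genes: 2 each for Dlx3 and Dlx4 and 1 for each of the others. The mutant group had 5 arrays of genotype Tgfbr2fl/fl;Wnt1-Cre, in which a Cre recombinase driven by the Wnt1 promoter, active in neural crest cells, deletes floxed Tgfbr2. Tgfbr2 encodes the receptor that binds TGF-beta ligands. The controls were 5 arrays of genotype Tgfbr2fl/fl, with the same floxed alleles and no Cre in the label, although the titles call them wildtype. All samples carry the strain label C57B6, and the labels do not say whether each sample came from a separate embryo. The p-values therefore measure the spread between these samples, which may be technical. Values are log2 signals, and the number of arrays limits their precision. The series asks how loss of TGF-beta signalling in neural crest leads to cleft palate.

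Dlx genes are the vertebrate relatives of Drosophila Distal-less and lie in the mouse genome as 3 neighbouring pairs, Dlx1 with Dlx2, Dlx3 with Dlx4 and Dlx5 with Dlx6. In the neural crest of the pharyngeal arches their overlapping domains pattern the jaws: Dlx1 and Dlx2 act in both upper and lower jaw, and mice that lack both form no upper molars and have palate defects. Dlx5 and Dlx6 act below endothelin signalling to specify the lower jaw, and Dlx3 is known from surface ectoderm, placenta and tooth.

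The promoters of Dlx1 and Dlx2 are shown because Dlx2 was the called member and Dlx1 is its neighbour on the chromosome. They are the members with a promoter in the RefSeq table used (2 of 7, build GRCm38.p6), and each run covers 250 bases before and 50 after the gene's start, in lower case with matches in capitals. The Dlx1 run is chr2:71529195-71529494 on the plus strand, and the Dlx2 run is chr2:71546705-71547004 on the minus strand.
Dlx1: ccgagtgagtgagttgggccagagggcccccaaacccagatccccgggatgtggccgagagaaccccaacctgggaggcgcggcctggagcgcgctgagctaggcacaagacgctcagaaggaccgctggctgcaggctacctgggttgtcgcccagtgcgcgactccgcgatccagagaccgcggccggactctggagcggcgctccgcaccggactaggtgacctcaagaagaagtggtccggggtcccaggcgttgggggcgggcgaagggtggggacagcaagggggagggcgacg
Dlx2: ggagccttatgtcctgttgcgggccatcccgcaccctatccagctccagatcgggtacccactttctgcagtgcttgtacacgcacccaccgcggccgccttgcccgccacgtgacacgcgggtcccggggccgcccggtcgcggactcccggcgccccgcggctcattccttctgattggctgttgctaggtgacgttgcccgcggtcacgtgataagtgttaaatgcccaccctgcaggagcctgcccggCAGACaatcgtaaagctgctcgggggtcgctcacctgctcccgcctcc
The letters CAGAC, the core that SMAD proteins bind, and TAATT, a homeodomain core, were searched on both strands; these motifs do not overlap each other. The capitals mark the 1 match, a CAGAC that begins at base 253 of the Dlx2 run. CAGAC stood in 49.6% of all 32851 RefSeq promoters of 300 bases and TAATT in 27.0%, so the match is a description of these letters only.

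Some arrays stood apart in measures taken over probe sets of the whole array. Control replicate 1 lay at 80.4 on the first principal component, against -21.0 to 2.68 for the other arrays. Control replicate 2 lay with the controls on the second component (-18.2, against -33.2 to -18.5 for control replicates 3 to 5). Of the 494 probe sets that differed at least 1.5-fold in a fit without it, it was nearer to the other controls in 56.1%, a share that was 71.6% to 97.0% for the other 9 arrays in fits made the same way. Tgfbr2 stood at 10.7 or 10.8 in mutant and 10.5 to 10.8 in control arrays. Whether its probe set covers the deleted exons is not stated, and tissue outside the crest keeps the gene, so these values do not check the deletion. All 14 palate mesenchyme markers were measured, with values of 7.9 or more in every array, above the array medians of 6.4 or 6.5. Skeletal muscle genes were lower in mutants, 13 of 18 measured and none higher (limma, adjusted over genes), where 5.36% of all genes were lower. On the median of these muscle genes, mutant replicate 4 lay inside the control range. Eif2s3y, a Y-linked gene, was 9.0 to 9.3 in mutant replicates 1 to 4 and control replicates 1 and 4 and 3.2 to 5.1 in the others.

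Dlx2 was lower in mutant palate, 1.72-fold, and was the 1 probe set of 9 that passed limma at an adjusted p under 0.05 over all probe sets. Among all 45101 probe sets, 3.25% passed, and 2.18% passed as lower in mutants. The other 8 did not pass, among them Dlx1 and Dlx6 at -0.48 each on the log2 scale. Dlx1as also did not pass, with a difference of -3.22 whose size is uncertain because most mutant signals were not far from the lowest in the table. The Dlx1as difference was -4.12 without control replicate 2. In 4 of the 5 controls Dlx1as, Dlx1 and Dlx2 all lay above every mutant array, and in control replicate 2 all 3 lay inside the mutant range. Groups overlapped for all 9 probe sets, while 3.41% of probe sets had every mutant below every control.

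**Figure D1:**
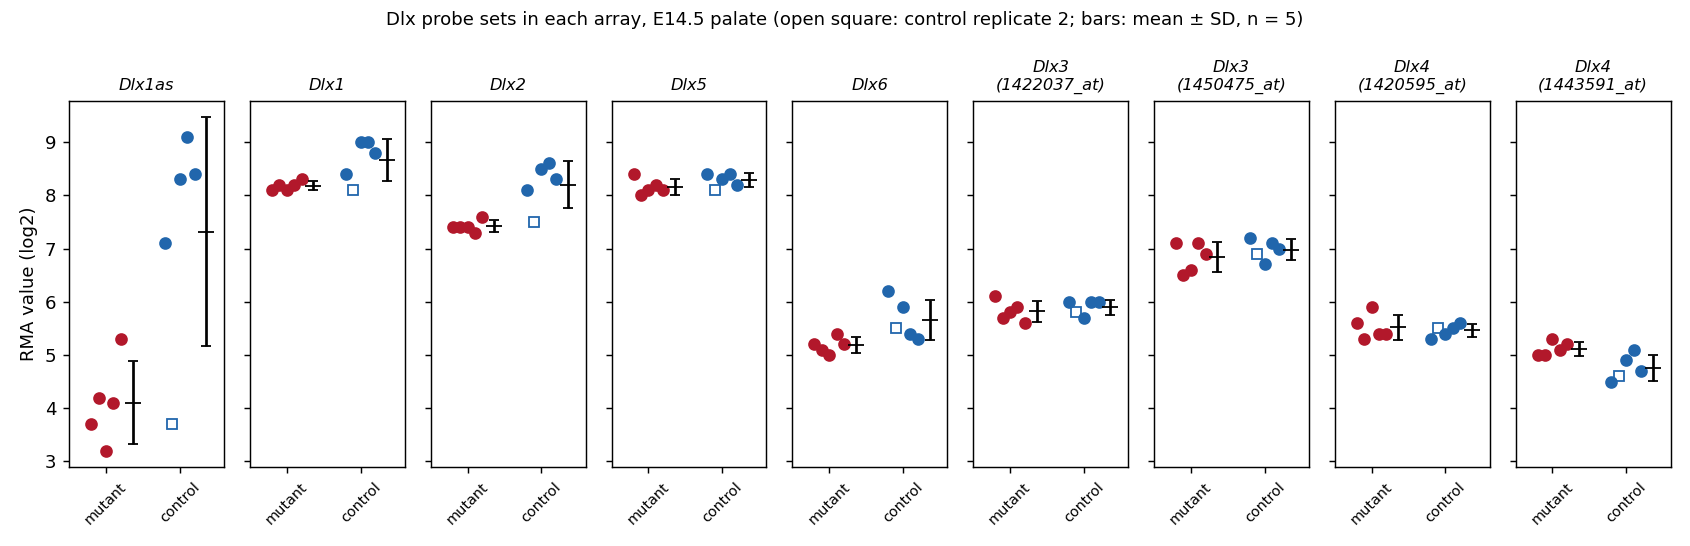
RMA values (log2, vertical axis) of the 9 Dlx probe sets in each array, mutant on the left and control on the right of each panel, with mean ± SD (n = 5) as bars. Control replicate 2, the open square, lies at 3.7 for Dlx1as, 8.1 for Dlx1 and 7.5 for Dlx2, while the other controls lie above all mutants for these 3.

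Dlx2, which with Dlx1 patterns the upper jaw and is needed for the upper molars, had values of 7.4, 7.4, 7.4, 7.3 and 7.6 in mutant replicates 1 to 5, against 8.1, 7.5, 8.5, 8.6 and 8.3 in control replicates 1 to 5. The mutants were tightly grouped, and 1 control, replicate 2, fell inside their range, so the groups overlapped. Dlx2 averaged 7.42 ± 0.11 in mutant and 8.20 ± 0.44 in control arrays (SD, n = 5 each), and fell by 0.78 on the log2 scale (SE 0.18, 95% confidence interval -1.16 to -0.40, limma adjusted p = 0.0368). This call was lost without any 1 of 8 arrays, namely each mutant replicate and control replicates 3, 4 and 5 (limma adjusted p 0.0649 to 0.0910). In those 8 fits 464 to 951 of all 45101 probe sets passed, against 1468 with all 10 arrays, so calls fell over the whole array. The Dlx2 difference stayed between -0.68 and -0.96 over all 10 fits without 1 array. Its call held without control replicate 1 (limma adjusted p = 0.0388, where 4.41% of probe sets passed) and without control replicate 2 (0.00329). The call was also lost with Eif2s3y (-0.83, limma adjusted p = 0.0700) or the median of the muscle markers (-0.88, 0.361) as a covariate. Both covariates were uneven between the groups. The muscle median deviation ran from -1.65 to 0.66 in mutants and from 0.37 to 2.02 in controls. Calls among the genes of the lists below fell from 21 to 6 with Eif2s3y and to 0 with the muscle median. The part of sex or muscle in the Dlx2 difference was not tested.

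Dlx1, the partner of Dlx2 on the same chromosome, had values of 8.1, 8.2, 8.1, 8.2 and 8.3 in mutant replicates 1 to 5, against 8.4, 8.1, 9.0, 9.0 and 8.8 in control replicates 1 to 5. Its lowest control, replicate 2, equalled the lowest mutant, and the other controls lay above the mutants. Dlx1 averaged 8.18 ± 0.08 in mutant arrays, against 8.66 ± 0.40 in controls (SD, n = 5 each), for a difference of -0.48 (SE 0.16, interval -0.83 to -0.13) that did not pass (limma adjusted p = 0.127). Without control replicate 2 the difference was -0.62 and passed (limma adjusted p = 0.0251).

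Dlx1as is a noncoding RNA read from the strand opposite Dlx1, known from the mouse forebrain and craniofacial tissue. Its values were 3.7, 4.2, 3.2, 4.1 and 5.3 in mutant replicates 1 to 5, against 7.1, 3.7, 8.3, 9.1 and 8.4 in control replicates 1 to 5. Mutant replicates 1 to 4 and control replicate 2 lay well below the array medians and not far from the lowest value in the table, 2.2, so the size of the difference is uncertain. Mutant replicate 5, at 5.3, also lay below its array median but farther from that lowest value. Within their own arrays the mutant values stood at percentiles 4.7 to 33.8 of all probe sets, against 10.8 for control replicate 2 and 59.4 to 83.6 in the other controls. Dlx1as averaged 4.10 ± 0.78 in mutants and 7.32 ± 2.15 in controls (SD, n = 5 each), with a difference of -3.22 (SE 0.86, interval -5.10 to -1.34). The call depended on the set of features fitted. The limma adjusted p was 0.0667 over all probe sets, where 3.25% passed. Over 1 probe set per gene it was 0.0374, where 8.26% of genes passed (5.36% lower and 2.9% higher in mutants). Without control replicate 2 the difference was -4.12 (interval -5.11 to -3.14, limma adjusted p = 0.00329).

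Without control replicate 2, Dlx1, Dlx2 and Dlx1as all passed and the mutants lay below the other 4 controls in all 3. In that fit 2.81% of all probe sets passed, and 4.36% had mutants wholly below controls. That array was set aside because of its values for these very genes, so the larger differences follow in part from the choice. Leaving out both control replicates 1 and 2, also chosen after the values were seen, gave -0.75 for Dlx1, -1.05 for Dlx2 and -4.50 for Dlx1as, and the same 3 calls (3 of 9, against 4.38% of all probe sets).

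**Figure D2:**
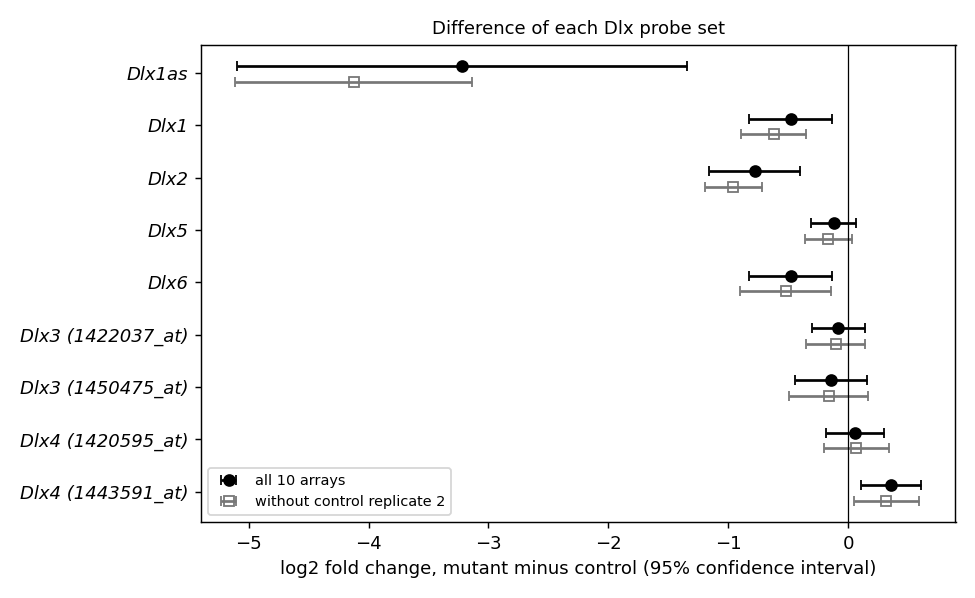
Log2 fold change of each Dlx probe set (horizontal axis, mutant minus control) with its 95% confidence interval, for all 10 arrays (filled circles) and without control replicate 2 (open squares). Dlx1as lies farthest from 0 (-3.22 and -4.12), Dlx2 lies at -0.78 and -0.96, and the intervals of Dlx5, Dlx3 and 1 Dlx4 probe set span 0 in both fits.

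Dlx1as, Dlx1 and Dlx2 varied together across arrays. After the mean of each group was subtracted, Pearson's r over the 10 arrays was 0.95 between Dlx1 and Dlx2 (Spearman's rho 0.87), 0.92 between Dlx1as and Dlx1 (rho 0.89) and 0.95 between Dlx1as and Dlx2 (rho 0.82). These points share arrays and normalization, and the controls were the more spread group. Over the 5 mutants and the 5 controls taken alone, r was 0.60 in mutants and 0.97 in controls for Dlx1 with Dlx2. It was 0.96 in mutants and 0.93 in controls for Dlx1as with Dlx1, and 0.70 in mutants and 0.98 in controls for Dlx1as with Dlx2. In mutants Dlx1 ran only from 8.1 to 8.3 and Dlx2 from 7.3 to 7.6, on values rounded to 0.1. The r values in mutants therefore rest on few rounding steps. Without the 2 arrays farthest from the median (control replicate 2 and control replicate 3 or 4), r was 0.86, 0.77 and 0.76. Dlx5 and Dlx6 gave an r of 0.41 (rho 0.42), and the brightest probe sets of Dlx3 and Dlx4 one of -0.13 (rho 0.02). Without the 2 arrays farthest from the median these became 0.47 and -0.74, so the second rests on few arrays. Between members of different pairs, Dlx5 gave 0.70 with the dimmer and 0.69 with the brighter Dlx3 probe set. The dimmer Dlx4 probe set gave 0.71 with Dlx1 and 0.67 with Dlx2, and the brighter gave -0.06 and -0.03. All other values between different pairs were lower than 0.67, and some were negative.

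**Figure D3:**
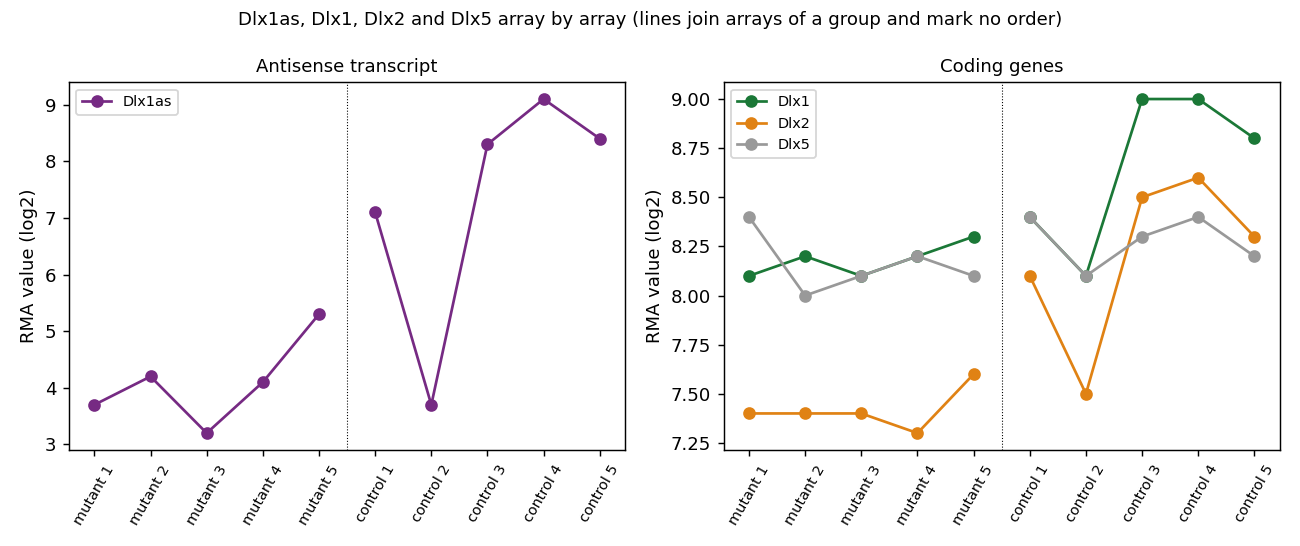
RMA values (log2, vertical axis) of Dlx1as, Dlx1, Dlx2 and Dlx5 in each array, mutants left of the dotted line and controls right of it; lines only join arrays of a group. Dlx1as, Dlx1 and Dlx2 are all lowest in control replicate 2 and highest in control replicate 4 among controls (Dlx1 equally in replicate 3), while Dlx5 stays between 8.0 and 8.4.

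The Dlx2 signal differed more than the Dlx1 signal between the groups. The Dlx1 minus Dlx2 difference within an array was 0.7 to 0.9 in mutants and 0.3 to 0.6 in controls, so the groups did not overlap. Control replicate 2 was the highest control at 0.6, only the rounding step of 0.1 below the lowest mutants. The mean was 0.76 ± 0.09 in mutants and 0.46 ± 0.11 in controls (SD, n = 5 each), which gives 0.30 and an exact two-sided permutation p of 0.00794, the smallest that 5 arrays against 5 allow (0.0318 adjusted over the 4 differences computed). With each array left out in turn it was 0.26 to 0.33. A difference between 2 probe sets shows unequal change of the 2 signals and not the ratio of the RNAs. Probes respond differently to their targets, so whether the RNAs themselves changed unequally was not tested.

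The other pairs gave no such separation. Dlx1as minus Dlx1 was -4.08 ± 0.70 in mutants and -1.34 ± 1.78 in controls (SD, n = 5 each; exact two-sided permutation p = 0.0397, adjusted 0.0794), with control replicate 2 at -4.4, inside the mutant range. Dlx5 minus Dlx6 was 2.98 ± 0.16 in mutants and 2.62 ± 0.33 in controls (exact permutation p = 0.0873, adjusted 0.116). Dlx3 minus Dlx4 was 1.32 ± 0.39 in mutants and 1.52 ± 0.24 in controls (exact permutation p = 0.444).

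**Figure D4:**
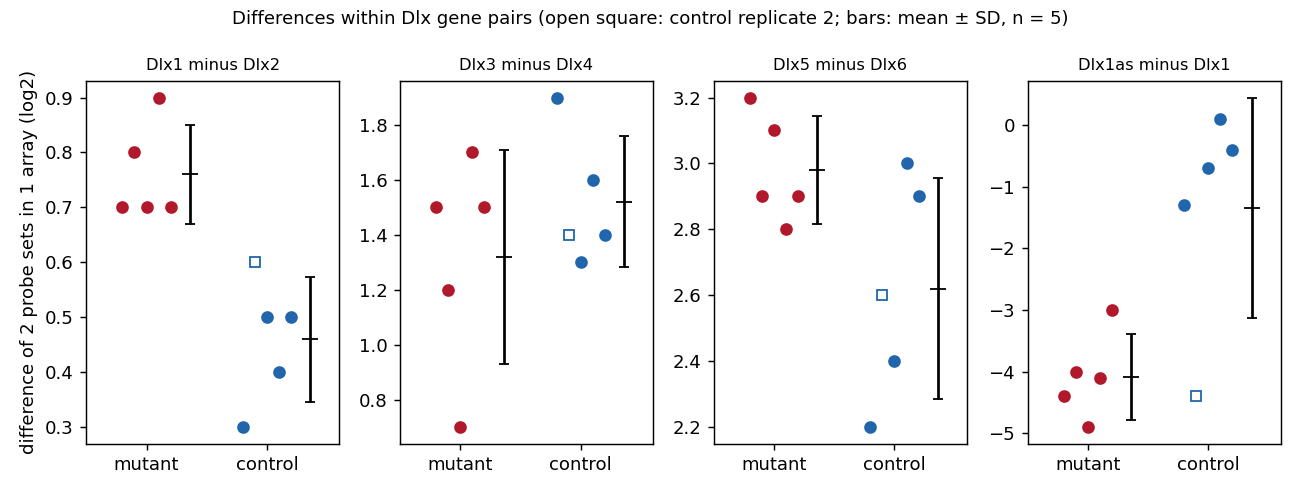
Difference of 2 probe sets within each array (log2, vertical axis, a scale of its own in each panel) for the 4 Dlx comparisons, mutant left and control right, with mean ± SD (n = 5) as bars. For Dlx1 minus Dlx2 the mutants (0.7 to 0.9) lie above the controls (0.3 to 0.6), and the other panels overlap.

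In the pair that specifies the lower jaw, Dlx6 was low on the array scale and Dlx5 was steady. Dlx6 had values of 5.2, 5.1, 5.0, 5.4 and 5.2 in mutant replicates 1 to 5, against 6.2, 5.5, 5.9, 5.4 and 5.3 in control replicates 1 to 5. The groups overlapped at 5.3 and 5.4, and the highest control was replicate 1, the array apart on the first component. Dlx6 averaged 5.18 ± 0.15 in mutants and 5.66 ± 0.38 in controls (SD, n = 5 each), for a difference of -0.48 (SE 0.16, interval -0.83 to -0.13) that did not pass (limma adjusted p = 0.127), and it was -0.35 without control replicate 1. Dlx5, which also acts in bone formation, had values of 8.4, 8.0, 8.1, 8.2 and 8.1 in mutant replicates 1 to 5, against 8.4, 8.1, 8.3, 8.4 and 8.2 in control replicates 1 to 5. Its groups overlapped almost wholly, with a difference of -0.12 (SE 0.09, interval -0.31 to 0.07, limma adjusted p = 0.487).

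Dlx3, a gene of surface epithelium and tooth, gave no called difference on either probe set. Its brighter probe set ran from 6.5 to 7.1 (median 6.9) in mutants and from 6.7 to 7.2 (median 7.0) in controls, with a difference of -0.14 (interval -0.44 to 0.16, limma adjusted p = 0.60). Its dimmer probe set ran from 5.6 to 6.1 in mutants and from 5.7 to 6.0 in controls, with a difference of -0.08 (interval -0.30 to 0.14, limma adjusted p = 0.698). Both intervals stay within a 1.5-fold change.

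The 2 probe sets of Dlx4, a family member expressed in the arches and placenta, were both below the array medians and differed from each other. The dimmer had values of 5.0, 5.0, 5.3, 5.1 and 5.2 in mutant replicates 1 to 5, against 4.5, 4.6, 4.9, 5.1 and 4.7 in control replicates 1 to 5. Mutants tended to be the higher group here, with an overlap through control replicate 4, at 0.36 (SE 0.11, interval 0.11 to 0.61, limma adjusted p = 0.109); without that array it passed at 0.44 (limma adjusted p = 0.0494, where 2.01% of probe sets passed). The brighter gave 0.06 (interval -0.18 to 0.30, limma adjusted p = 0.799), with 5.3 to 5.9 in mutants and 5.3 to 5.6 in controls.

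Other noncoding RNAs at Dlx loci did not share the size of the Dlx1as difference. Dlx6os1, the Evf RNA that overlaps Dlx6, averaged 5.24 ± 0.11 in mutants and 5.30 ± 0.29 in controls, a difference of -0.06 (interval -0.34 to 0.22, limma adjusted p = 0.826). Its array pattern within groups was nonetheless close to that of Dlx2 (r = 0.92 over 10 arrays, group means removed), with control replicate 2 lowest at 4.8. Dlx6os2 and Dlx4os differed by -0.14 and 0.14 (limma adjusted p = 0.383 and 0.540), and all 3 lay below the array medians.

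The genes flanking the Dlx pairs were compared on 1 probe set per gene, the nearest 4 on each side, with limma adjusted over 18194 genes (8.26% passed). Beside Dlx1 and Dlx2, 1 of 8 passed, Gm17250, which was higher at 0.24 (SE 0.06, adjusted p = 0.0257), and the 8 ranged from -0.32 to 0.24. Beside Dlx5 and Dlx6, 2 of 8 passed, both lower: Slc25a13, a mitochondrial aspartate-glutamate carrier (-0.32, adjusted p = 0.00926), and Asns, asparagine synthetase (-0.28, adjusted p = 0.0346). All 8 flanking genes there were negative, from -0.48 to -0.08. Beside Dlx3 and Dlx4 none of 8 passed (lowest adjusted p = 0.506, none with an unadjusted p under 0.05).

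**Figure D5:**
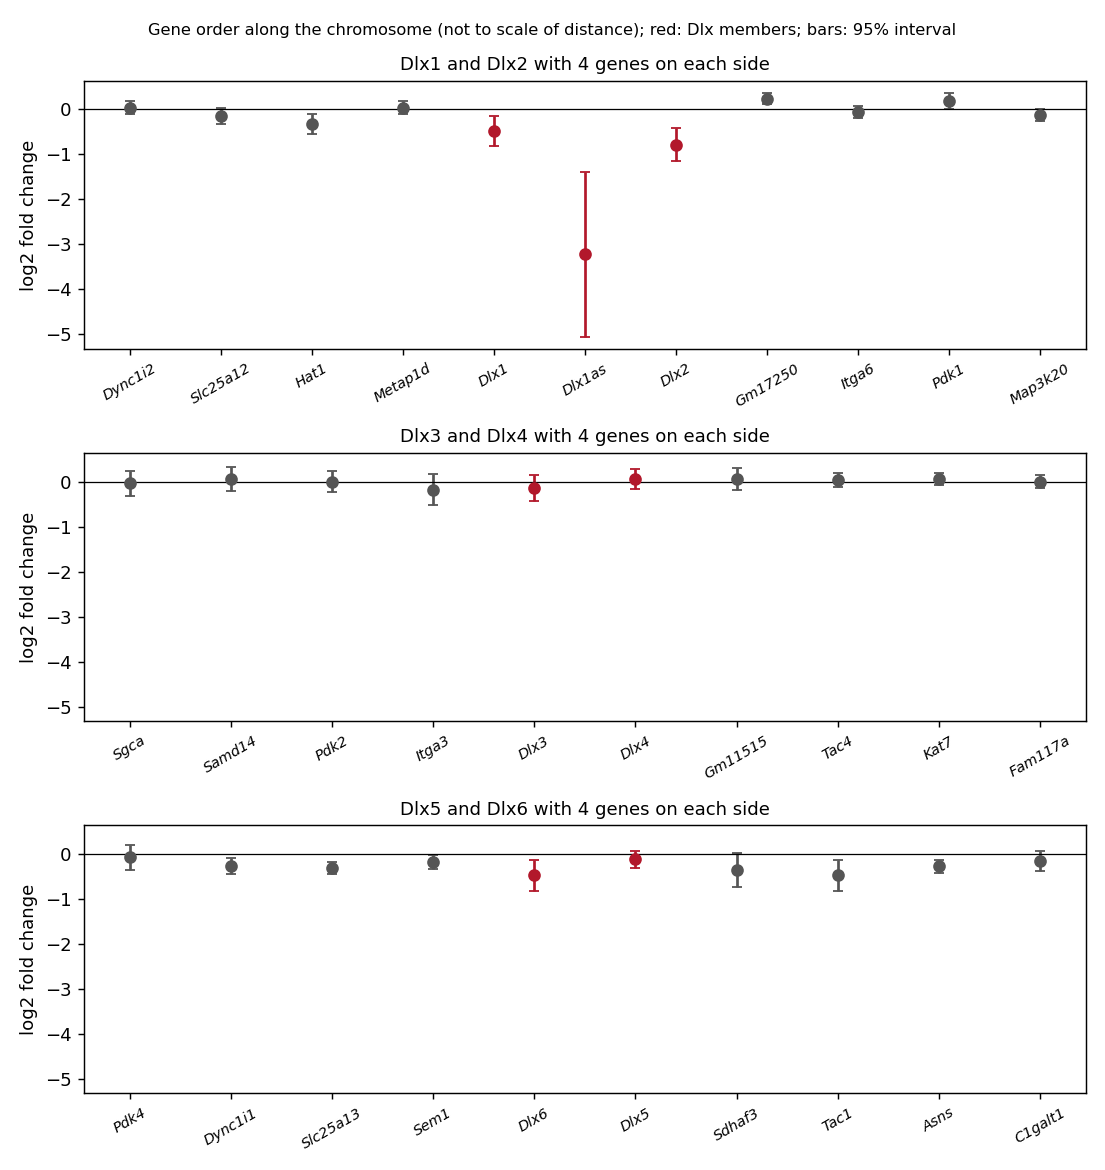
Log2 fold change (vertical axis, mutant minus control) with 95% confidence interval of the Dlx genes (red) and the 4 nearest measured genes on each side (grey), in chromosome order and not to scale of distance. Dlx1, Dlx1as and Dlx2 lie at -0.48, -3.22 and -0.78, while their 8 neighbours lie between -0.32 and 0.24.

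Single genes that work with Dlx factors in jaw patterning passed, in shares to be read against the 8.26% of all genes that did (5.36% lower, 2.9% higher). In the endothelin and lower jaw programme 1 of 12 measured genes passed, Barx1, a homeobox gene of proximal jaw and molar mesenchyme, which fell by 0.34 (limma adjusted p = 0.0325), and the median difference was -0.07, against 0.00 over all genes. In the upper jaw and crest programme 2 of 16 passed, both higher: Nr2f1, a nuclear receptor of upper jaw crest (0.50, adjusted p = 0.00846), and Meis2, a TALE homeobox gene (0.30, adjusted p = 0.0255), with a median of 0.02. Among BMP inputs and readouts, whose ligands induce Dlx genes in arch mesenchyme, Bmp2 (0.28, adjusted p = 0.0382) and Id4 (0.30, adjusted p = 0.0460) were higher and 16 of 18 did not pass (median 0.03). No bone gene of 10 passed by limma, with the smallest p for Ibsp, bone sialoprotein (0.52, adjusted p = 0.105). Of these 10, 4 had an unadjusted p under 0.05. The limma adjustment took the unadjusted p of Dmp1, 0.0497, to 0.198, so p-values under 0.05 were frequent over all genes. The median bone difference was 0.28, with control replicate 1 the lowest array. In the anterior and posterior palate list, Tbx22, a gene of posterior palate, was higher (0.62, adjusted p = 0.0183), Barx1 was the decrease, and 10 of 12 did not pass.

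Of 12 tooth germ genes measured, 2 were lower in mutants and none higher, where 5.36% of all genes were lower: Barx1, and Lef1, a Wnt effector that teeth need to develop past the bud, which fell by 0.52 (SE 0.11, limma adjusted p = 0.0168). Lef1 had values of 7.0, 7.1, 7.0, 7.2 and 7.2 in mutant replicates 1 to 5, against 7.7, 7.2, 7.8, 7.8 and 7.6 in control replicates 1 to 5, so control replicate 2 again lay at the mutant level. The list's median deviation (the median over its genes of value minus the gene's mean over arrays) ran from -0.12 to 0.01 in mutants, against -0.12 in control replicate 2, 0.02 in control replicate 1 and 0.13 to 0.25 in the other controls. With group means removed, 4 of the 12 (33.3%) had an r of 0.8 or more with Dlx2 over 10 arrays, namely Lef1, Msx1, Lhx6 and Lhx8, against 0.467% of all genes. Control replicate 2 was the lowest control for each of these 4 and for Dlx2, and r without it was not computed. Lhx6, Lhx8 and Msx1 also belong to the upper jaw list, where they make 3 of 16 (18.8%). Msx1 also belongs to the anterior and posterior palate list (8.33%) and the palate mesenchyme markers (7.14%). Foxf1 in the endothelin and lower jaw programme (8.33%) had an r of 0.87, as Lef1 did, and Id4 in the BMP list (5.56%) one of 0.8. Dlx6os1 had an r of 0.92, in a list of only 2 measured noncoding transcripts at Dlx loci (50%). The bone, epithelial, forebrain, olfactory and muscle lists held no such gene. Other tooth germ genes ran the opposite way, with an r of -0.42 for Wnt10a and -0.24 for both Fgf4 and Wnt10b. Msx1, a homeobox gene of tooth and anterior palate mesenchyme named here after its values were seen, had 8.9, 8.8, 8.0, 8.4 and 8.2 in mutant replicates 1 to 5, against 9.2, 7.9, 9.8, 9.9 and 9.7 in control replicates 1 to 5 (-0.84, limma adjusted p = 0.147). The part of tooth germ or anterior tissue in the Dlx1 and Dlx2 differences was not tested. In such bulk samples, fewer cells of a type and less RNA per cell cannot be told apart.

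Markers of other tissues that express Dlx genes were counted against the same 8.26% of all genes. Gad1 and Gad2, which define the forebrain interneurons that use Dlx1, Dlx2 and Dlx1as, lay at 4.2 to 4.8 and 3.7 to 4.1 over all arrays, below the array medians. Some others of the forebrain and neuron list also lay below the medians. Stmn2 (7.7 to 9.6) and Isl1 (7.7 to 8.4) lay above them in all arrays, so levels were uneven within the list. None of the 13 forebrain markers passed by limma, with the smallest p for Isl1 (-0.26, adjusted p = 0.155). An unadjusted p under 0.05, a level frequent over all genes, was found for 2 of them. Their median deviation lay between -0.05 and 0.23 in mutants and between -0.14 and 0.25 in controls, with control replicate 2 at -0.02. Of 12 olfactory markers 1 passed, Pax6 (-0.38, adjusted p = 0.0362). Of 15 epithelial markers none passed, with the smallest p for Krt8 (0.56, adjusted p = 0.0638), and 3 had an unadjusted p under that frequent level of 0.05. The epithelial list's median deviation lay between -0.07 and 0.21 in mutants, against 0.31 in control replicate 1, -0.03 in control replicate 2 and -0.27 to -0.24 in control replicates 3 to 5. Apart from control replicate 1, it was thus lowest in the controls where Dlx2 was highest. With group means removed, its median r with Dlx2 was -0.38, with -0.88 for Krt19 and -0.84 for Krt15, keratins of simple and basal epithelium. The part of epithelium in the Dlx differences was not tested. Palate mesenchyme markers gave -0.01 to 0.13 in mutants and -0.17 to 0.07 in controls on the list's median deviation, with Tbx22 the 1 call of 14. Skeletal muscle markers ran from -1.65 to 0.66 in mutants and from 0.37 to 2.02 in controls. Their 3 calls with the smallest p were Myf5 (-1.86), Actn2 (-1.98) and Tnnt1 (-1.74), with control replicate 2 at 1.01 on the list's median deviation, inside the control range. The median r of muscle markers with Dlx2 within groups was -0.10.

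The genes whose array pattern was most like each member, among 10912 brighter genes with group means removed, were sought as a description, since the highest of so many values over 10 arrays is large in any case. For Dlx1as they were Adgrb3, Pom121 and Chst2 (r = 0.95, 0.95 and 0.93), for Dlx1 Adgrb3, Cacna1h and Hmga2 (0.97, 0.93 and 0.93), and for Dlx2 Adgrb3, Chst2 and Nab2 (0.96, 0.94 and 0.94). Hmga2, a chromatin protein of embryonic growth, was lower in mutants by limma over genes, the 1 call among these. Hmga2 had 10.7, 10.7, 10.6, 10.7 and 10.6 in mutant replicates 1 to 5, against 11.2, 10.9, 11.6, 11.8 and 11.4 in control replicates 1 to 5. It fell by 0.72 (adjusted p = 0.0114) with control replicate 2 as the lowest control, yet the groups did not overlap. For Dlx5 the genes were Emp1, Clstn3 and Gpr85 (0.94, 0.93 and 0.92), and for Dlx6 Gnl2, Cnbp and Abcg2 (0.95 each). Abcg2, an efflux transporter, also passed: it fell by 0.34 (limma adjusted p = 0.00717), with 9.2 to 9.3 in mutants and 9.5 to 9.7 in controls, so the groups did not overlap.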

How the data were processed

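The authors deposited log2 values made with RMA, per the submitters' processing notes, from 1 Affymetrix array per sample of total RNA; no version, filter or batch is stated. Values carry 1 decimal and run from 2.2 to 14.3, which limits small differences. Of 45101 probe sets, 34958 had 1 gene symbol, 932 several and 9211 none; symbols were updated by Entrez ID through a RefSeq table of assembly GRCm38.p6 (34754 found).

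Mutant minus control was fitted with limma 3.58.1 under R 4.3.3 (lmFit and eBayes, two-sided), without filter or covariate, with Benjamini-Hochberg adjustment over all probe sets for Dlx probe sets, or over 18194 genes (the probe set with the highest mean) for lists and neighbours. A call is an adjusted p under 0.05. Differences within pairs used exact permutation tests. Members, lists and rules were chosen with earlier results of these data known. Named genes are all Dlx probe sets, up to 3 called genes per list or the 1 with the smallest p, the 4 nearest genes on each side of a pair, Tgfbr2 and the 3 genes most like 5 members. Eif2s3y, Dlx6os1, Dlx6os2, Gad1, Gad2, Stmn2, Msx1, Foxf1, Lhx6, Lhx8, Wnt10a, Wnt10b, Fgf4, Krt15 and Krt19 were added after their values were seen. On simulated arrays of 45101 probe sets with 50 changed at each size, the fit recovered 1 changed 1.2-fold, 34 changed 1.5-fold, 42 changed 2-fold and 50 changed 3-fold, and called 6 unchanged ones. The simulated noise was independent between probe sets and had no effects shared across an array. Some measured arrays did stand apart, so these counts need not hold for them. Arrays with the same number in both groups did not deviate together (r -0.06 to 0.07), so the numbers were not taken as pairs. Alternatives were other probe set choices, filters, normalizations, weights, covariates, a replicate block and leaving out arrays. Listed genes without a probe set of 1 symbol were not analysed here.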

Additional observations from a re-analysis of the deposited data

Results flagged for a closer look

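No Dlx probe set had an array beyond Dixon's critical value in the 18 groups of 5 arrays tested (the critical value is 0.71). The nearest were the mutant group of Dlx2 (0.667, mutant replicate 5 at 7.6) and the control group of Dlx1as (0.63, control replicate 2 at 3.7).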

How the results depend on the processing

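The count of called Dlx probe sets, 1 as reported, was 2 with 1 probe set per gene or the mean of a gene's probe sets and 3 with array weights or with both control replicates 1 and 2 left out. It was 0 with a covariate (Eif2s3y or the median of muscle markers) and with the replicate block, and 0 to 3 with 1 array left out. Dlx2 was negative in all 22 alternatives (-1.05 to -0.68), and so were Dlx1 (-0.75 to -0.40) and Dlx1as (21 alternatives, -4.50 to -2.77). Dlx2 lost its call in 11, including Eif2s3y (limma adjusted p = 0.0700), the muscle median (0.361) and the replicate block (0.0960). Uncalled values that changed sign were the dimmer (0.01) and brighter (0.12) Dlx3 probe sets with the muscle covariate and the brighter Dlx4 probe set (-0.03 to 0.12 with 1 array left out). List genes called, 21 as reported, were 11 with an intensity trend, 6 with Eif2s3y, 0 with the muscle median, 4 with the replicate block and 5 to 24 with 1 array left out, 5 to 8 without any of mutant replicates 1, 2, 3 and 5 or control replicates 3 and 5. The Dlx5 minus Dlx6 difference was 0.25 to 0.45 and Dlx1as minus Dlx1 -3.50 to -2.38 with 1 array left out. The cause of these changes was not tested. A covariate, a block or a left-out array uses residual degrees of freedom, and the part of that was not tested either. The replicate block changed no other Dlx call.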
